A study of Homo sapiens with 12 samples.

Results

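The proteasome genes of JEKO-1 cells are described here across treatment with KPT-330, choline salicylate (CS) and the combination. Members were taken by name and annotation only: protein-coding genes on a primary chromosome called PSMA, PSMB, PSMC, PSMD, PSME, PSMF or PSMG followed by a digit. That rule found 51 of 64253 genes in the deposited table. Of these, 2 are read-through genes that overlap PSMA1 and PSMA2 in the genome, and PSMC3IP, a partner of the meiotic recombinases, carries the name without being a proteasome gene. The other 48 were sorted by role into 16 core, 22 regulatory, 3 immunoproteasome and 7 assembly genes. The test covered 47 of them. The exception was PSMB11, the thymus form of a catalytic subunit, which had 0 reads in each library, and a count of 0 allows up to 3.

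JEKO-1 is a human mantle cell lymphoma line. Cells were kept for 48 h with KPT-330 and CS together (KPT-330+CS), KPT-330 alone, CS alone, or the solvent DMSO, and 3 libraries were sequenced per group. KPT-330, or selinexor, blocks the nuclear export receptor XPO1, and CS is a salicylate salt. From its title, the study asked whether salicylates strengthen the action of XPO1 inhibitors against tumour cells. Only 1 cell line was used. The labels give neither the dose of these libraries nor whether replicates were grown separately, and the p-values below therefore rest on a spread that may be technical.

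The proteasome degrades proteins tagged with ubiquitin. Its barrel-shaped core is built from alpha rings (PSMA genes), which gate the entry, and beta rings (PSMB genes), which hold the catalytic sites. A regulatory cap of ATPases (PSMC) and further subunits (PSMD) recognises, unfolds and feeds in the substrate, and other caps (PSME) can take its place. In lymphoid cells the catalytic subunits PSMB5, PSMB6 and PSMB7 are partly replaced by PSMB8, PSMB9 and PSMB10, which interferon induces and which alter the peptides made for antigen presentation.

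Total counts were 35325563 to 59490178 per library. The B-cell and mantle cell markers PAX5, CCND1 and SOX11 were read in every library. Libraries also differed in how levels moved with the GC content of a gene. The slope, in log2 units per 10 percentage points of GC, was 0.128, 0.0259 and -0.150 with KPT-330+CS, 0.203, 0.195 and 0.228 with KPT-330, -0.229, -0.102 and 0.0592 with CS, and 0.0874, -0.130 and -0.314 with DMSO. The KPT-330 libraries thus lay above all others, so a GC correction and a fit on 9 libraries, which drops the lowest slope from KPT-330+CS, CS and DMSO, are among the alternatives named below. The biological coefficient of variation was 11% with KPT-330+CS, 2.88% with KPT-330, 11.8% with CS and 15.9% with DMSO.

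Proteasome transcripts in sum were lower in every treatment than with DMSO, while the immunoproteasome genes were higher on average. Summed over the 48 genes, levels in CPM (counts relative to the library total, with library sizes scaled by TMM) averaged 5496 ± 82.2 with KPT-330+CS, 6281 ± 45.0 with KPT-330, 7823 ± 14.9 with CS and 9216 ± 134 with DMSO (SD, n = 3 each). The 4 groups did not overlap. Core genes summed to 2404 ± 61.6 with KPT-330+CS, 2660 ± 13.9 with KPT-330, 3214 ± 18.1 with CS and 3862 ± 77.3 with DMSO. The regulatory genes kept that order, at 2678 ± 26.9, 3161 ± 34.4, 4178 ± 3.88 and 4898 ± 58.3 CPM in KPT-330+CS, KPT-330, CS and DMSO libraries. In the assembly genes the sums were closer, at 292 ± 9.75, 325 ± 1.09, 325 ± 11.3 and 370.2 ± 19.2 in the same groups. The 3 immunoproteasome genes ran the other way, with 123 ± 15.9 CPM under KPT-330+CS, 137 ± 4.64 under KPT-330, 104 ± 14.3 under CS and 86.0 ± 17.2 under DMSO. In that sum KPT-330 libraries lay above all CS and DMSO libraries, which overlapped. KPT-330+CS libraries lay above all DMSO libraries, the lowest by a narrow margin (105 against 104.5 CPM), and overlapped KPT-330 and CS libraries. Within KPT-330+CS, CS and DMSO the immunoproteasome sum followed the order of the libraries' GC slopes. The core and assembly sums followed the reverse order there. With GC correction the median log2 fold change of the 3 genes for KPT-330 against DMSO was 0.38, against 0.82 without it. How far the slopes moved the sums between groups was not tested. In bulk RNA, fewer transcripts per cell and fewer expressing cells cannot be told apart.

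**Figure D1:**
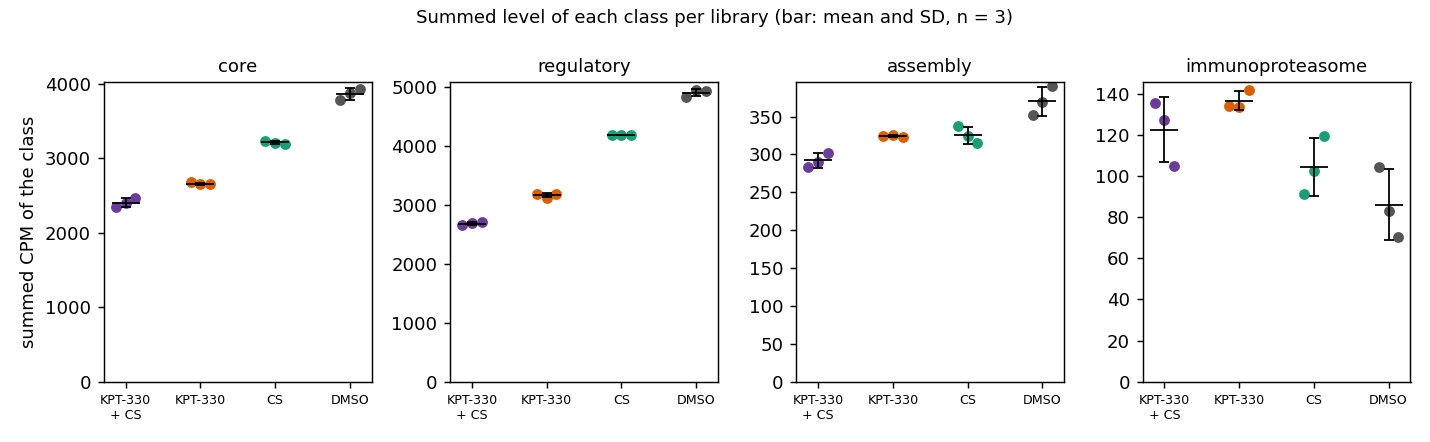
Summed CPM of the core, regulatory, assembly and immunoproteasome genes in each library, by treatment (points; bars, mean and SD, n = 3). Core and regulatory sums step down from DMSO through CS and KPT-330 to KPT-330+CS without overlap, while the immunoproteasome sum is highest with KPT-330, at 137 ± 4.64 CPM, against 86.0 ± 17.2 with DMSO. Within KPT-330+CS, CS and DMSO the immunoproteasome sum is higher where the library's GC slope is higher.

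With KPT-330 alone against DMSO, 35 of 47 proteasome genes fell and 5 rose at an adjusted p of 0.05 or less (edgeR quasi-likelihood test, Benjamini-Hochberg over 19460 genes). Among all tested genes 23.8% fell and 24.7% rose. The median log2 fold change was -0.43 over the 47 genes and 0.04 over all tested genes. By class, 12 of 15 core, 20 of 22 regulatory and 3 of 7 assembly genes fell, whereas all 3 immunoproteasome genes, 1 regulatory gene and 1 assembly gene rose. With GC correction 35 genes fell and 2 rose, PSMB8 and PSMB9. KPT-330 and DMSO libraries did not overlap for 42 of the 47 genes, 37 of them lower, where 27.4% of all tested genes were lower and 30.3% higher without overlap. At the study's own limit of an absolute log2 fold change over 2, no proteasome gene was called in any comparison. Of all tested genes, 4.36% were called at that limit for KPT-330+CS, 3.02% for KPT-330 and 0.144% for CS, each against DMSO, and 0.853% for KPT-330+CS against KPT-330, 3.00% for KPT-330+CS against CS, 2.67% for CS against KPT-330 and 0.761% for the interaction.

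**Figure D2:**
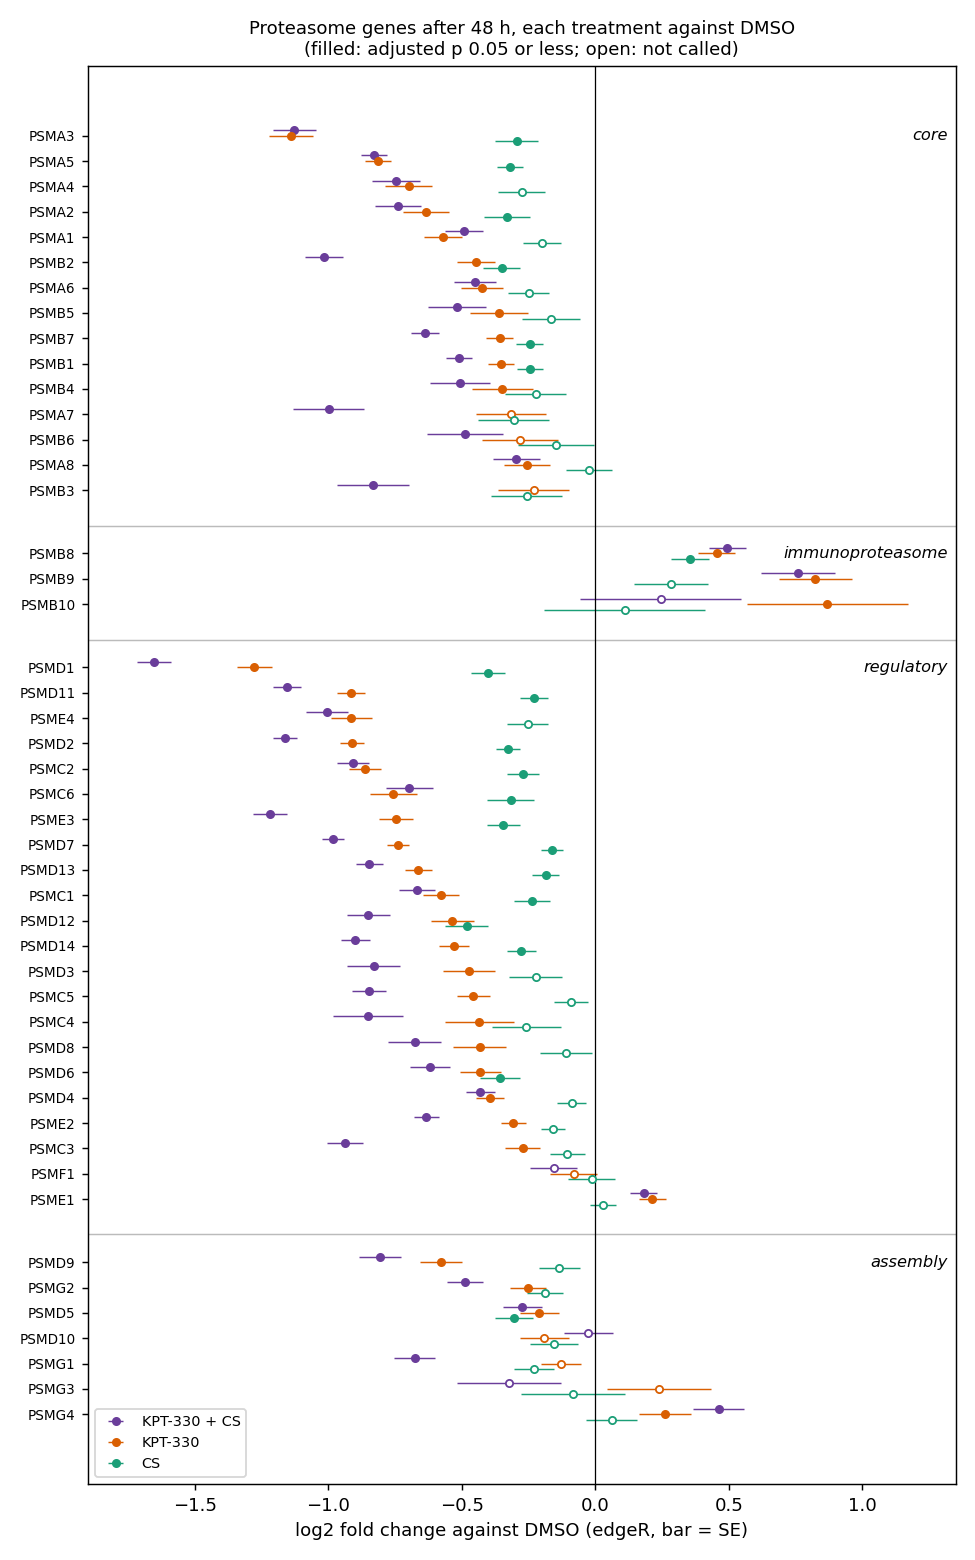
Log2 fold change of each tested proteasome gene against DMSO for KPT-330+CS, KPT-330 and CS (edgeR, bar = SE), grouped by class; filled points have an adjusted p of 0.05 or less. Most core and regulatory genes lie left of 0, down to -1.65 for PSMD1. With KPT-330 the immunoproteasome genes, PSME1 and PSMG4 lie to the right, as does PSMG3 with an open point.

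In the alpha ring, 7 of 8 genes fell with KPT-330, with a median log2 fold change of -0.60. PSMA3 (chr14:58244831-58272012, hg38), which had the largest change of the ring, was at 83.7, 89.1 and 97.5 CPM with KPT-330+CS, 88.1, 90.7 and 89.0 with KPT-330, 174, 160.5 and 148 with CS, and 177, 196 and 217 with DMSO. KPT-330 and KPT-330+CS libraries overlapped, and both lay below every CS and DMSO library. The log2 fold change against DMSO was -1.14 ± 0.08, adjusted p = 2e-07 with KPT-330. PSMA8, the form found mainly in testis, had the smallest change of the ring. It was at 12.8, 13.3 and 13.6 CPM with KPT-330+CS, 13.8, 14.0 and 13 with KPT-330, 16.8, 16.6 and 14.5 with CS, and 14.7, 16.5 and 17.6 with DMSO, with KPT-330 libraries just below DMSO libraries. The change with KPT-330 was -0.26 ± 0.09, adjusted p = 0.0273. That call was lost without KPT-330 replicate 1 or 3 or DMSO replicate 2 or 3, with log2 fold changes of -0.26, -0.23, -0.24 and -0.18. It was also lost with library size alone (-0.093, adjusted p = 0.331), GC correction (-0.070, adjusted p = 0.33), no filter on low counts, only the compared groups, or the fit on 9 libraries.

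PSMA1, whose exons partly overlap those of a read-through gene, was at 346, 369 and 405 CPM with KPT-330+CS, 355, 359 and 349 with KPT-330, 482, 458 and 432 with CS, and 480.1, 531 and 564 with DMSO. The read-through gene held between 84.4% and 87.9% of PSMA1's count in a library, and the one at PSMA2 between 98.5% and 99.5%. Whether reads were counted to both genes of such a pair is not given, so the levels of PSMA1 and PSMA2 are uncertain. KPT-330 libraries of PSMA1 lay below all DMSO libraries (-0.57 ± 0.07, adjusted p = 2.7e-05). PSMA7 was at 104, 99.96 and 82.1 CPM with KPT-330+CS, 154, 152 and 155 with KPT-330, 130.1, 154 and 179 with CS, and 226, 190.2 and 156 with DMSO. Its DMSO libraries were spread so widely that the lowest was close to the KPT-330 libraries, and it was not called there (-0.32 ± 0.13, adjusted p = 0.0641). It passed without DMSO replicate 3 (-0.43, adjusted p = 0.0292), CS replicate 1 or 3 (-0.32 and -0.31) or KPT-330+CS replicate 3 (-0.32), and with GC correction (-0.54, adjusted p = 2.96e-07), in the fit on 9 libraries or with DESeq2 and its size factors.

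In the beta ring, 5 of 7 constitutive genes fell with KPT-330, with a median of -0.35. PSMB2, a structural subunit, was at 102, 99.3 and 91.2 CPM with KPT-330+CS, 145, 147 and 143 with KPT-330, 145, 156 and 163 with CS, and 216, 198 and 179 with DMSO. KPT-330 libraries lay below all DMSO libraries, and KPT-330+CS libraries lay lower still (-0.45 ± 0.07, adjusted p = 0.000171 for KPT-330 against DMSO). Its neighbour in the ring, PSMB3, was at 65.1, 59.5 and 50.9 CPM with KPT-330+CS, 86.8, 87.4 and 92.1 with KPT-330, 76.3, 85.4 and 99.8 with CS, and 126, 103 and 83.9 with DMSO, so KPT-330 and DMSO libraries overlapped and PSMB3 was not called (-0.23 ± 0.13, adjusted p = 0.168). With a GC correction PSMB3 passed at -0.36 (adjusted p = 0.0084).

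The 3 constitutive catalytic subunits were lower on average with KPT-330 and differed in how clearly. PSMB5, the chymotrypsin-like subunit and main target of bortezomib, was at 85.2, 84.9 and 73.2 CPM with KPT-330+CS, 94.7, 83.8 and 92.7 with KPT-330, 91.7, 103 and 116 with CS, and 133, 117 and 98.8 with DMSO. KPT-330 libraries lay below all DMSO libraries. It fell (-0.36 ± 0.11, adjusted p = 0.0142), a call lost without KPT-330 replicate 2 (-0.31, adjusted p = 0.0643) or DMSO replicate 1 (-0.25, adjusted p = 0.0688). The call was also lost with library size alone (-0.21, adjusted p = 0.206), with no filter on low counts (-0.35, adjusted p = 0.051) and with only the compared groups (-0.33, adjusted p = 0.0541). PSMB6, the caspase-like subunit, was at 72.1, 66.8 and 55.7 CPM with KPT-330+CS, 76.3, 70.4 and 77.6 with KPT-330, 71.4, 80.5 and 94.5 with CS, and 110.2, 91.1 and 71.4 with DMSO. KPT-330 and DMSO libraries of PSMB6 overlapped, and it did not pass (-0.28 ± 0.14, adjusted p = 0.115), although it did without DMSO replicate 3 (-0.42, adjusted p = 0.0332) and with GC correction (-0.46, adjusted p = 0.00076). PSMB7, the trypsin-like subunit, was at 174, 183 and 194 CPM with KPT-330+CS, 227, 219.9 and 222 with KPT-330, 246, 241 and 237 with CS, and 275, 287 and 296 with DMSO. Its groups did not overlap in any pair (-0.36 ± 0.05, adjusted p = 8.3e-05 for KPT-330 against DMSO).

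All 6 ATPases of the cap fell with KPT-330, by a median of 0.52 on the log2 scale. PSMC2 changed most, at 134, 143 and 153 CPM with KPT-330+CS, 146, 148 and 149 with KPT-330, 233, 222 and 214 with CS, and 252, 272 and 283 with DMSO. KPT-330 libraries lay far below all CS and DMSO libraries (-0.86 ± 0.06, adjusted p = 1.51e-07 against DMSO). PSMC3 (chr11:47418769-47426473, hg38) changed least, at 174, 164 and 154 CPM with KPT-330+CS, 264, 251 and 265 with KPT-330, 269.7, 294 and 313 with CS, and 333, 311 and 297 with DMSO. Here KPT-330 libraries lay just below DMSO libraries (-0.27 ± 0.07, adjusted p = 0.00421), and KPT-330+CS libraries lay below all others. With library size alone the KPT-330 value was -0.11 (adjusted p = 0.217), and the call was lost. Reads of the processed pseudogene PSMC1P1 came to between 25.1% and 27.5% of the count of PSMC1, and counting could split reads between them. On the opposite strand, NRDE2 shares 76.1% of the exon bases of PSMC1, and FTSJ3 shares 15.3% of those of PSMC5. Unstranded counts cannot separate these genes, so the level of PSMC1 is uncertain.

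The 11 other cap subunits all fell with KPT-330, with a median of -0.54. PSMD1 (chr2:231056864-231172827, hg38), a large scaffold subunit, changed most of all proteasome genes and was at 131, 135 and 144 CPM with KPT-330+CS, 179, 179 and 174 with KPT-330, 336, 326 and 313 with CS, and 392, 429.6 and 466 with DMSO. The groups were fully separate, with KPT-330+CS lowest and DMSO highest. The log2 fold change was -1.28 ± 0.06, adjusted p = 7.46e-09 for KPT-330 against DMSO. PSMD2, the other large scaffold, changed by -0.91 ± 0.04, adjusted p = 6.79e-09, and the lid subunit PSMD11 by -0.91 ± 0.05, adjusted p = 2.3e-08.

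PSMD4, a ubiquitin receptor, changed least of these subunits and was at 225, 225 and 215 CPM with KPT-330+CS, 236, 219 and 226 with KPT-330, 275, 276 and 292 with CS, and 310.0, 304 and 281 with DMSO. All KPT-330 libraries still lay below all DMSO libraries (-0.39 ± 0.05, adjusted p = 5.38e-05). The lid subunit PSMD12 was at 78.5, 79.3 and 85.8 CPM with KPT-330+CS, 97.1, 103 and 103 with KPT-330, 111, 104 and 98.6 with CS, and 129, 146 and 165 with DMSO. KPT-330 and CS libraries of PSMD12 overlapped and both lay below DMSO. PSMD6, another lid subunit, was at 80.3, 82.3 and 93.9 CPM with KPT-330+CS, 97.9, 98.4 and 96.4 with KPT-330, 111, 101 and 96.3 with CS, and 119.9, 134 and 141 with DMSO, with the same arrangement.

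**Figure D3:**
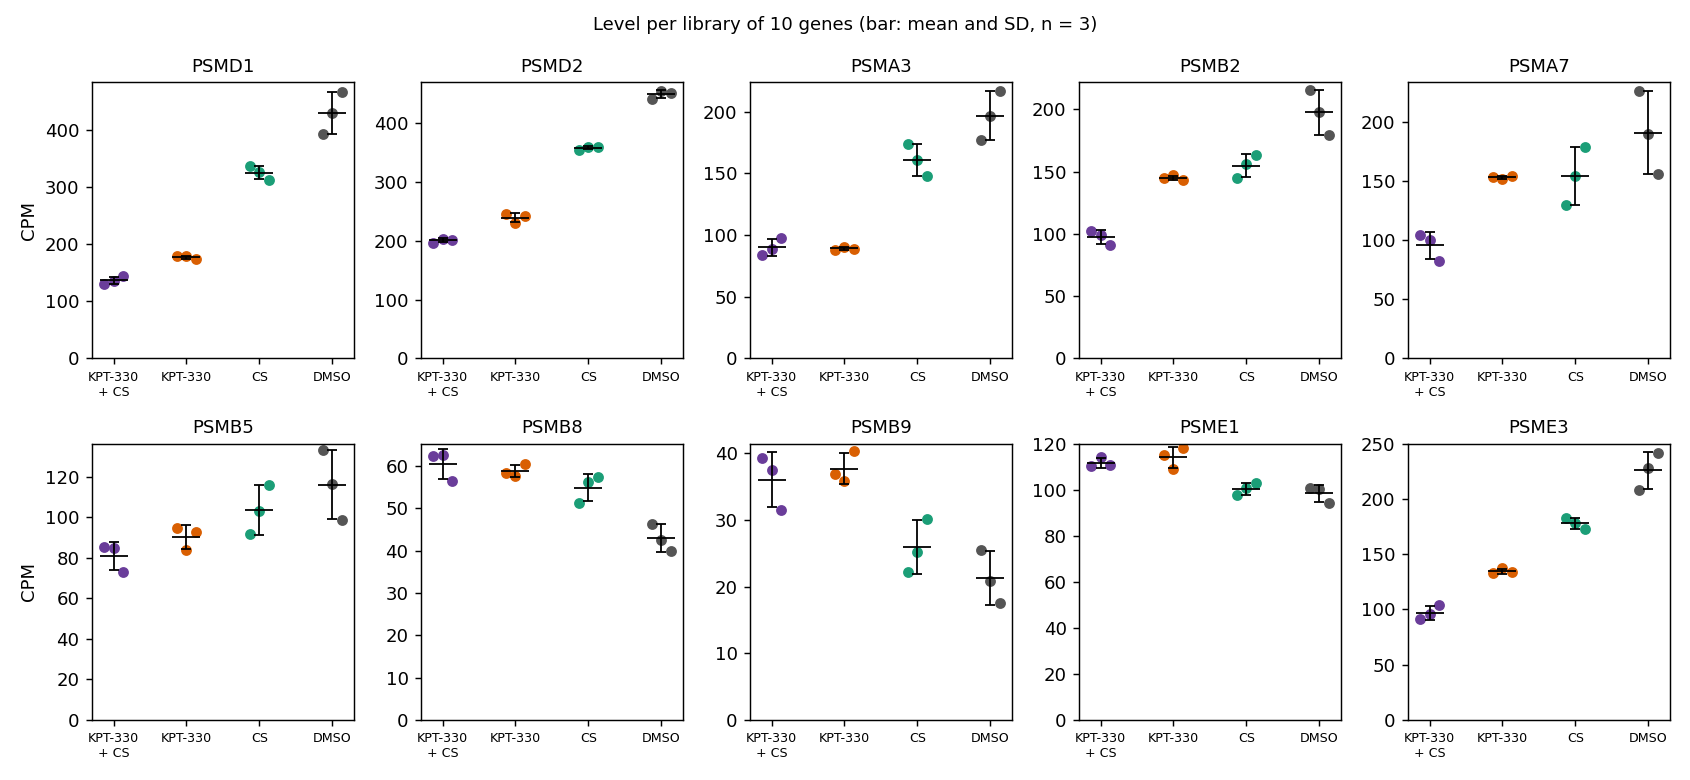
CPM of 10 proteasome genes in each library by treatment (points; bars, mean and SD, n = 3). PSMD1, PSMD2 and PSME3 step down across all 4 groups, PSMA3 is low with both KPT-330+CS and KPT-330, and PSMB8 and PSMB9 are higher with both KPT-330 treatments than with DMSO.

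Of the alternative caps and the inhibitor, 3 of 5 fell and 1 rose with KPT-330. PSME1 and PSME2 form one ring, the interferon-induced activator, yet their transcripts moved apart. PSME1 (chr14:24136158-24138967, hg38) was at 110.4, 114 and 111 CPM with KPT-330+CS, 115, 109 and 118 with KPT-330, 97.8, 101 and 103 with CS, and 101, 100.2 and 94.4 with DMSO. Both KPT-330 treatments lay above CS and DMSO, which overlapped, and PSME1 rose with KPT-330 (0.21 ± 0.05, adjusted p = 0.00328). After GC correction its change was 0.08 (adjusted p = 0.0928). PSME2 (chr14:24143362-24147570), on the same chromosome, was at 76.5, 74.5 and 76.1 CPM with KPT-330+CS, 97.4, 93.1 and 94.4 with KPT-330, 104, 104 and 108 with CS, and 121, 119 and 113 with DMSO. KPT-330 libraries of PSME2 lay below CS and DMSO libraries, and it fell (-0.31 ± 0.05, adjusted p = 0.000131).

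PSME3, which forms the nuclear activator ring, was at 91.6, 95.4 and 104 CPM with KPT-330+CS, 133, 137 and 134 with KPT-330, 183, 178 and 173 with CS, and 208, 228 and 241 with DMSO. All 4 groups were separate, and KPT-330 differed from DMSO by -0.75 ± 0.06, adjusted p = 7.9e-07. PSME4, an activator linked to histone turnover, was at 142, 151 and 164 CPM with KPT-330+CS, 161, 164 and 162 with KPT-330, 271, 255 and 244 with CS, and 272, 309 and 337 with DMSO. KPT-330 libraries lay below every CS and DMSO library (-0.91 ± 0.08, adjusted p = 8.36e-07). PSMF1, an inhibitor of the core in vitro, was at 102, 93.3 and 89.9 CPM with KPT-330+CS, 97.9, 98.3 and 104 with KPT-330, 97.9, 103 and 114 with CS, and 119.8, 106 and 92.3 with DMSO. No pair of groups was separate for PSMF1 (-0.08 ± 0.09, adjusted p = 0.471 for KPT-330 against DMSO). Reads of PSME1 per read of PSME3 were 1.2, 1.2 and 1.06 with KPT-330+CS, 0.865, 0.796 and 0.886 with KPT-330, 0.534, 0.566 and 0.596 with CS, and 0.485, 0.439 and 0.391 with DMSO. That ratio was highest with KPT-330+CS and lowest with DMSO, with no overlap between groups. Within KPT-330+CS, CS and DMSO the ratio followed the order of the libraries' GC slopes. How far the slopes moved it between groups was not tested.

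All 3 immunoproteasome genes rose with KPT-330. PSMB8 (chr6:32840717-32844703, hg38), which replaces PSMB5, was at 62.5, 62.7 and 56.4 CPM with KPT-330+CS, 58.5, 57.7 and 60.5 with KPT-330, 51.2, 56.2 and 57.4 with CS, and 46.4, 42.5 and 39.9 with DMSO. All treated libraries lay above all DMSO libraries, and KPT-330 differed from DMSO by 0.46 ± 0.07, adjusted p = 0.000141. PSMB9 (chr6:32844136-32859585), which replaces PSMB6, was at 39.3, 37.5 and 31.5 CPM with KPT-330+CS, 37.0, 35.9 and 40.3 with KPT-330, 22.2, 25.3 and 30.2 with CS, and 25.5, 20.8 and 17.5 with DMSO. Both KPT-330 treatments lay above CS and DMSO, which overlapped (0.82 ± 0.14, adjusted p = 0.000284 for KPT-330 against DMSO). With GC correction the changes were 0.30 for PSMB8 (adjusted p = 6.36e-07) and 0.88 for PSMB9 (adjusted p = 0.00286). The annotated spans overlap, and these genes share 139 exon bases on opposite strands. In addition, 17.3% of the exon bases of PSMB8 and 5.2% of those of PSMB9 are shared with PSMB8-AS1, from which unstranded counts cannot separate them. T-cell markers moved with KPT-330 as well: 5 of 7 were tested and all 5 rose, with summed levels of 1.76 to 2.33 CPM with KPT-330+CS, 3.66 to 4.0 with KPT-330, 0.537 to 0.790 with CS and 1.0 to 1.26 with DMSO. CD2 had at most 4 reads and CD3D at most 8 in any library. Of 5 myeloid markers 3 were tested and 2 fell with KPT-330, with summed levels of 1.87 to 2.08 CPM with KPT-330+CS, 1.52 to 1.81 with KPT-330, 1.68 to 1.94 with CS and 2.10 to 4.15 with DMSO. The part of these shifts in the immunoproteasome values was not tested.

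PSMB10 (chr16:67934502-67937087), which replaces PSMB7, was at 33.7, 27.1 and 17.0 CPM with KPT-330+CS, 38.7, 40.0 and 41.1 with KPT-330, 17.8, 21.0 and 31.9 with CS, and 32.6, 19.8 and 13.1 with DMSO. KPT-330 libraries lay above all others, and the remaining groups overlapped. KPT-330 differed from DMSO by 0.87 ± 0.30, adjusted p = 0.0292. That call was lost without any one of KPT-330 replicates 1, 2 and 3, CS replicate 2 and DMSO replicates 2 and 3, with log2 fold changes between 0.62 and 0.89 and adjusted p between 0.0578 and 0.159. PSMB10 has a GC content of 61.7%, and within KPT-330+CS, CS and DMSO its level followed the order of the libraries' GC slopes. The level of PSMB9 did so in the same groups, and that of PSMB8 in CS and DMSO. For PSMB10, further fits gave smaller or less certain changes. With GC correction the change of PSMB10 was 0.38 (adjusted p = 0.0647), in the fit on 9 libraries 0.61 (adjusted p = 0.111) and with no filter 0.88 (adjusted p = 0.152). A read-through gene on the same strand shares 39.4% of the exon bases of PSMB10.

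**Figure D4:**
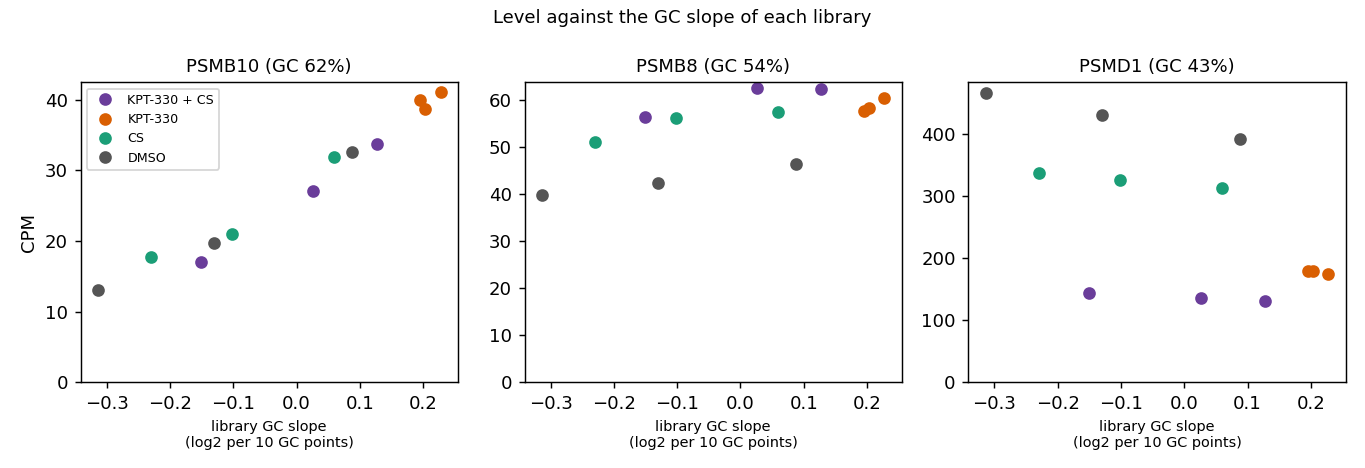
CPM of PSMB10, PSMB8 and PSMD1 against the GC slope of each library (log2 units per 10 percentage points of GC), coloured by treatment. PSMB10 is highest in the KPT-330 libraries, which also have the highest slopes, and within each other group it is higher where the slope is higher. No other group has a library at the slopes of KPT-330.

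Ratios of an induced to a constitutive subunit compare reads within a library. PSMB8 reads per PSMB5 read were 0.733, 0.738 and 0.771 with KPT-330+CS, 0.617, 0.688 and 0.653 with KPT-330, 0.558, 0.544 and 0.494 with CS, and 0.348, 0.364 and 0.404 with DMSO. The 4 groups were separate, with KPT-330+CS highest and DMSO lowest. PSMB9 reads per PSMB6 read were 0.545, 0.562 and 0.565 with KPT-330+CS, 0.485, 0.509 and 0.519 with KPT-330, 0.312, 0.314 and 0.320 with CS, and 0.232, 0.228 and 0.245 with DMSO. This pair again gave 4 separate groups in the same order, with means of 0.557 ± 0.0109 with KPT-330+CS and 0.235 ± 0.00867 with DMSO (SD, n = 3 each). For PSMB10 against PSMB7 the ratio was 0.193, 0.149 and 0.0874 with KPT-330+CS, 0.171, 0.182 and 0.185 with KPT-330, 0.0722, 0.0871 and 0.135 with CS, and 0.118, 0.0688 and 0.0443 with DMSO. KPT-330 libraries lay above all CS and DMSO libraries, and KPT-330+CS libraries overlapped each other group. The genes of a pair differ in length and GC content, so the ratios are not ratios of molecules. Because libraries differ in GC slope, a difference in GC content does not cancel between libraries. Within KPT-330+CS, CS and DMSO the PSMB10 to PSMB7 ratio followed the order of the GC slopes. The PSMB8 to PSMB5 ratio followed the reverse order in each of these groups. The PSMB9 to PSMB6 ratio kept no common order across them. How far the slopes moved the ratios between groups was not tested.

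**Figure D5:**
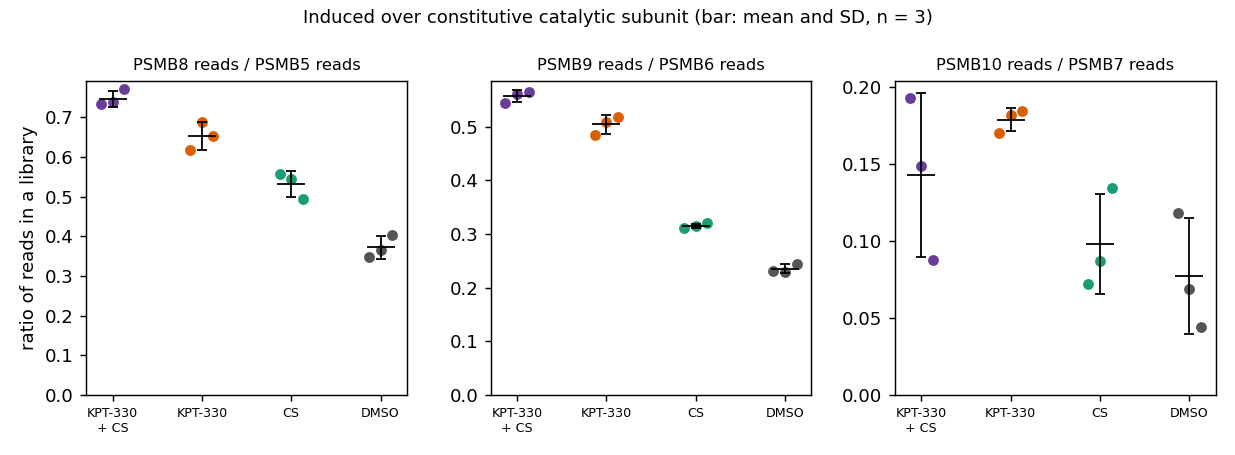
Reads of PSMB8 per PSMB5 read, PSMB9 per PSMB6 read and PSMB10 per PSMB7 read in each library, by treatment (points; bars, mean and SD, n = 3). The first and second ratios separate all 4 groups, highest with KPT-330+CS and lowest with DMSO, and in the PSMB10 ratio KPT-330+CS overlaps each other group.

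Interferon-response and stress elements are known from promoters of several proteasome genes, so the bases before the start of the 5 genes that rose with KPT-330 are shown with those of PSME2, the partner of PSME1, and PSMD1, the gene that fell most. Each stretch is the 250 bases before the RefSeq gene start in GRCh38.p14, 5′ to 3′ on the gene's strand, with capitals marking a motif match. That start can differ from the start of the gene as counted. By the spans given above, the windows of PSMB9 and PSME2 lie within the counted gene, and that of PSMB10 nearly all does. The windows of PSMB8, PSME1 and PSMD1 overlap the counted gene in part. Positions were chr6:32844680-32844929 (- strand) for PSMB8, chr6:32853942-32854191 (+ strand) for PSMB9, chr16:67936851-67937100 (- strand) for PSMB10, chr14:24135944-24136193 (+ strand) for PSME1, chr6:3258697-3258946 (+ strand) for PSMG4, chr14:24146611-24146860 (- strand) for PSME2 and chr2:231056617-231056866 (+ strand) for PSMD1.
PSMB8: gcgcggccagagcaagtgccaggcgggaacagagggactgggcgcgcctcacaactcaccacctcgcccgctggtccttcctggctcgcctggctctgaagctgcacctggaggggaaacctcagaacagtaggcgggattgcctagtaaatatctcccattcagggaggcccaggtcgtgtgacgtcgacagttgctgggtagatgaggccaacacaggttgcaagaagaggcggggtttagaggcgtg
PSMB9: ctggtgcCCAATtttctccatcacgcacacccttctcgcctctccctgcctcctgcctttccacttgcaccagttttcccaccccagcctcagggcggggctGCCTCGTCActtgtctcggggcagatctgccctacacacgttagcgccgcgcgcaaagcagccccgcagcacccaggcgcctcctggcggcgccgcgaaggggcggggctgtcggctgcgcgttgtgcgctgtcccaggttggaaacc
PSMB10: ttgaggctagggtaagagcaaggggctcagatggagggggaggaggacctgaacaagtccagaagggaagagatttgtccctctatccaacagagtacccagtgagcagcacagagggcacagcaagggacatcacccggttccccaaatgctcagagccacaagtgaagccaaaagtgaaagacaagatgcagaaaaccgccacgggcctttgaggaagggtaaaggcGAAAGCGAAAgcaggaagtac
PSME1: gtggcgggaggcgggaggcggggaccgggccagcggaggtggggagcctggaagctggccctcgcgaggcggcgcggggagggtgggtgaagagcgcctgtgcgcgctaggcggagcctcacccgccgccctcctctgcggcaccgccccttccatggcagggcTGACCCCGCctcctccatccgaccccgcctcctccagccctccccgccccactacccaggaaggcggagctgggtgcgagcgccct
PSMG4: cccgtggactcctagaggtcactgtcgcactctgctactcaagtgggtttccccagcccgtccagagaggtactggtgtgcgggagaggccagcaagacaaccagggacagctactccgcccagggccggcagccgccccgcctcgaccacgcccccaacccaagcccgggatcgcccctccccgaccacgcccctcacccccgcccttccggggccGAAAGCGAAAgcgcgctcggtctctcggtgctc
PSME2: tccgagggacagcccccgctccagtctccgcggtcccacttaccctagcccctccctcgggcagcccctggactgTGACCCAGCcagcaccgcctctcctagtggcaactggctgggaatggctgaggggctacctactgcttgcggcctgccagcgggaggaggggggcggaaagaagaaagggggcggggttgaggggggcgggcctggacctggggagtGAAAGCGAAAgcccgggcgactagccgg
PSMD1: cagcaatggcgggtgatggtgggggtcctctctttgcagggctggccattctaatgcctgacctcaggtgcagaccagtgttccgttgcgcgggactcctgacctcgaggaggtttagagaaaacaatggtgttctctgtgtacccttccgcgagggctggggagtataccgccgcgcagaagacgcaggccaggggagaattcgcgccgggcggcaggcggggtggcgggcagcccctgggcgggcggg
Motifs searched on both strands included the interferon-response core (GAAA, a pair of any bases, GAAA), the antioxidant-response core TGACNNNGC and the CCAAT box CCAAT. PSMB10, PSMG4 and PSME2 each held GAAAGCGAAA, with first bases 21, 33 and 28 before the RefSeq start. PSMB9, PSME1 and PSME2 held the antioxidant-response core, and PSMB9 also held a CCAAT box. PSMB8 and PSMD1 held none of these within this window. RefSeq promoters were found for 42 of the 48 genes. The interferon-response core was in 5 of these 42 (11.9%) and in 3.07% of 27305 promoters of the same length. For the antioxidant-response core the counts were 11 of 42 (26.2%) and 3013 of 27305 promoters (11%), and for the CCAAT box 18 of 42 (42.9%) and 33.0%. A match is a run of letters and does not show that a factor binds.

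Of the assembly genes 3 of 7 fell and 1 rose with KPT-330. Among the chaperones that build the cap, PSMD9 was at 28.1, 25.2 and 24.7 CPM with KPT-330+CS, 29.5, 31.1 and 30.8 with KPT-330, 40.6, 40.3 and 43.3 with CS, and 50.2, 45.1 and 41.1 with DMSO, and KPT-330 libraries lay below all CS and DMSO libraries (-0.58 ± 0.08, adjusted p = 4.88e-05). PSMD10, also known as gankyrin, was at 87.7, 96.2 and 102 CPM with KPT-330+CS, 86.0, 85.3 and 84.0 with KPT-330, 97.3, 85.4 and 79.2 with CS, and 86.2, 95.9 and 109 with DMSO. KPT-330 libraries of PSMD10 lay below all KPT-330+CS libraries and, by a narrow margin, below all DMSO libraries. Its other pairs of groups overlapped. PSMD10 passed in KPT-330 against DMSO only without DMSO replicate 1 (-0.27, adjusted p = 0.0174). With all libraries it was at -0.19 ± 0.09, adjusted p = 0.0995. Among the chaperones of the core, PSMG2 was at 40.9, 41.6 and 45.1 CPM with KPT-330+CS, 50.1, 50.9 and 49.6 with KPT-330, 55.4, 51.8 and 49.9 with CS, and 54.7, 60.1 and 64.3 with DMSO. It fell with KPT-330 (-0.25 ± 0.07, adjusted p = 0.00806), with no overlap with DMSO, and lost the call with library size alone (-0.089, adjusted p = 0.194).

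PSMG4, another core chaperone, was at 15.7, 14.4 and 13.6 CPM with KPT-330+CS, 12.3, 13.2 and 12.5 with KPT-330, 9.92, 11.5 and 11.6 with CS, and 11.4, 10.8 and 9.53 with DMSO. KPT-330+CS libraries were highest, KPT-330 libraries lay between them and DMSO libraries, and the change with KPT-330 was 0.26 ± 0.10, adjusted p = 0.0382. The call was lost without any one of KPT-330+CS replicate 2, KPT-330 replicates 1, 2 and 3, CS replicate 2 and DMSO replicates 2 and 3, at adjusted p between 0.0514 and 0.122 and log2 fold changes between 0.20 and 0.29. It was also lost with GC correction (0.16, adjusted p = 0.063), in the fit on 9 libraries (0.19, adjusted p = 0.09), with no filter, with the replicate block and with DESeq2. SLC22A23 shares 13.3% of the exon bases of PSMG4, and the counts carry no strand.

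KPT-330+CS against DMSO gave the most calls of the 7 comparisons. There 39 of 47 genes fell and 4 rose (edgeR), where 26.2% of all tested genes fell and 29.3% rose. The median log2 fold change was -0.68, against 0.04 over all tested genes. Libraries did not overlap for 42 genes, 38 of them lower, where 25.9% of all tested genes were lower and 30.7% higher without overlap. All 15 tested core genes, 20 of 22 regulatory genes and 4 of 7 assembly genes fell. PSMD1 changed by -1.65 ± 0.06, adjusted p = 3.62e-10, PSME3 by -1.22 ± 0.06, adjusted p = 3.86e-09 and PSMA7 by -1.0 ± 0.13, adjusted p = 2.88e-05. The genes that rose were PSMB9 (0.76 ± 0.14, adjusted p = 0.000377), PSMB8 (0.49 ± 0.07, adjusted p = 4.43e-05), PSMG4 (0.46 ± 0.10, adjusted p = 0.00114) and PSME1 (0.18 ± 0.05, adjusted p = 0.00738). With GC correction PSME1 had a change of 0.09 (adjusted p = 0.0527). PSMB10 did not pass, at 0.25 ± 0.30, adjusted p = 0.517.

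The addition of CS to KPT-330 lowered part of the proteasome genes further. In KPT-330+CS against KPT-330, 22 of 47 fell and 0 rose (edgeR), where 17.9% of all tested genes fell and 19.7% rose. The median was -0.19, and close to 0 over all genes. Libraries did not overlap for 27 genes, 25 of them lower, where 29.1% of all tested genes were lower and 28.1% higher without overlap. The genes that fell were 5 core, 13 regulatory and 4 assembly genes, and only 1 of 8 alpha ring genes was among them, against 4 of 7 in the beta ring, 3 of 6 ATPases and 8 of 11 other cap subunits. Differences between these role groups were not tested.

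The 3 lowest values among all genes of the name were those of PSMC3IP (-0.80 ± 0.07, adjusted p = 3.34e-06), PSMA7 (-0.68 ± 0.13, adjusted p = 0.00144) and PSMC3 (-0.67 ± 0.07, adjusted p = 8.52e-06). All KPT-330+CS libraries of these genes lay below every KPT-330 library. PSMB3 (-0.60 ± 0.13, adjusted p = 0.00339), PSMB2 (-0.57 ± 0.07, adjusted p = 4.7e-05), PSMG1 (-0.55 ± 0.08, adjusted p = 0.00012) and PSME3 (-0.47 ± 0.06, adjusted p = 8e-05) also fell. Among genes that did not pass, the highest values were those of PSMG4 (0.20 ± 0.10, adjusted p = 0.117), PSMD10 (0.17 ± 0.09, adjusted p = 0.169) and PSMA1 (0.08 ± 0.07, adjusted p = 0.425). PSMA3 was at 0.01 ± 0.08, adjusted p = 0.907. With GC correction 34 genes fell and 2 rose, and alpha ring genes such as PSMA3 (-0.13, adjusted p = 0.000797) were then among those that fell. KPT-330+CS and KPT-330 libraries differ in GC slope.

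KPT-330+CS against CS, which asks what KPT-330 adds, gave 36 lower and 3 higher genes of 47 (edgeR), where 21.7% of all tested genes fell and 26.1% rose. The median was -0.43, against 0.04 over all genes. PSMD1 changed by -1.25 ± 0.06, adjusted p = 6.64e-09. The genes that rose were PSMB9 (0.48 ± 0.14, adjusted p = 0.0113), PSMG4 (0.40 ± 0.10, adjusted p = 0.0037) and PSME1 (0.15 ± 0.05, adjusted p = 0.0223). With GC correction PSMB9 (0.43, adjusted p = 0.0627) and PSME1 (0.077, adjusted p = 0.102) lost their calls. PSMB9 also lost it without CS replicate 1 (0.37, adjusted p = 0.0505), and PSME1 without KPT-330+CS replicate 2 or CS replicate 1 or 2, at 0.14, 0.13 and 0.15, in the fit on 9 libraries, with no filter, with DESeq2 and with its size factors. Library size alone gave 32 lower and 6 higher genes.

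With CS alone fewer of these genes passed. Against DMSO, 19 of 47 fell and 1 rose (edgeR), where 5.13% of all tested genes fell and 3.76% rose. The median was -0.23, against -0.01 over all genes, and 6 core, 12 regulatory and 1 assembly gene fell. Libraries did not overlap for 24 genes, 23 of them lower, where 12% of all tested genes were lower and 10.7% higher without overlap. The lowest values were those of PSMD12 (-0.48 ± 0.08, adjusted p = 0.00272), PSMD1 (-0.40 ± 0.06, adjusted p = 0.00192) and PSMD6 (-0.36 ± 0.08, adjusted p = 0.011). PSMD6 lost its call without CS replicate 2 or 3 or DMSO replicate 2, at -0.34, -0.29 and -0.35. The highest were those of PSMB8, which rose (0.36 ± 0.07, adjusted p = 0.00743), and of PSMB9 (0.28 ± 0.14, adjusted p = 0.24) and PSMB10 (0.11 ± 0.30, adjusted p = 0.887), which did not pass. In a fit of CS and DMSO libraries alone 1 gene of the 47 was called, PSMD2 (-0.33 ± 0.04, adjusted p = 0.000718 in the fit of all libraries). With GC correction 29 genes fell and 1 rose. Leaving out 1 library gave between 8 and 25 called genes, the lowest 8, 10 and 11 when CS replicate 3, DMSO replicate 2 or CS replicate 2 was missing.

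CS against KPT-330 compared the single drugs. Of 47 genes 22 were higher and 2 lower with CS (edgeR), where 20.2% of all tested genes were higher and 22.6% lower. Scaling by library size alone gave 19 higher and 5 lower. The median was 0.18, against -0.04 over all genes. PSMD1 differed by 0.88 ± 0.06, adjusted p = 3.17e-07, PSMA3 by 0.85 ± 0.08, adjusted p = 3.73e-06 and PSME4 by 0.66 ± 0.08, adjusted p = 1.9e-05. Lower with CS were PSMB9 (-0.54 ± 0.14, adjusted p = 0.00633) and PSME1 (-0.18 ± 0.05, adjusted p = 0.00928). The PSME1 call was lost without KPT-330 replicate 3 (-0.16, adjusted p = 0.0522), and with GC correction its change was -0.07 (adjusted p = 0.166).

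The interaction asks whether the 2 drugs together differ from the sum of their separate log2 changes. For 43 of 47 genes it did not pass, and 1 was positive and 3 negative (edgeR), where 8.04% of all tested genes were positive and 6.62% negative. The negative share was thus close to that of all genes, and the positive share was lower. PSMC3 was the clearest, at -0.56 ± 0.09, adjusted p = 0.00182: CS changed it by -0.67 in the presence of KPT-330 and by -0.10 without it. The other ATPase that passed was PSMC5, at -0.30 ± 0.09, adjusted p = 0.0398. The immunoproteasome gene PSMB8 was at -0.32 ± 0.10, adjusted p = 0.0467 and the alpha ring gene PSMA5 at 0.30 ± 0.07, adjusted p = 0.0109. The PSMB8 call was lost without any single library except CS replicate 1 or DMSO replicate 1, at values between -0.34 and -0.27. The fit on 9 libraries also lost PSMB8 (-0.27, adjusted p = 0.0528). The PSMC5 call was lost without any single library except CS replicate 1 or DMSO replicates 1 and 3, at values between -0.32 and -0.27. PSMA5 had 0.13 (adjusted p = 0.0916) under GC correction.

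PSMC3IP was at 10.4, 11.4 and 10.8 CPM with KPT-330+CS, 18.1, 18.7 and 19.8 with KPT-330, 12.9, 13.2 and 13.2 with CS, and 15.9, 16.2 and 15.4 with DMSO. KPT-330 libraries were highest and KPT-330+CS libraries lowest, with no overlap among the 4 groups. It rose with KPT-330 against DMSO (0.25 ± 0.07, adjusted p = 0.00957), a call lost without KPT-330 replicate 3 (0.22, adjusted p = 0.0539). MLX shares 30.1% of its exon bases.

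Per length, levels of the tested proteasome genes in DMSO libraries ran from 1.01 ± 0.0911 CPM per kb for PSMG4 to 160.1 ± 5.80 for PSMB7 (SD, n = 3). PSMA1, at 159 ± 12.8, did not differ from PSMB7 beyond the spread. On that scale PSMB8, PSMB9 and PSMB10 were at 21.4, 6.92 and 11.8, below PSMB5, PSMB6 and PSMB7 at 65.9, 62.8 and 160.1. Gene length is that of the annotation in the table, and transcripts in use may be shorter.

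Genes that work with the proteasome were counted in lists, to be read against the 23.8% of all tested genes that fell and the 24.7% that rose with KPT-330. Of 13 partners, 8 fell and 1 rose with KPT-330, with a median of -0.35. POMP, which matures the core, averaged 198 ± 21.1 CPM with KPT-330+CS, 192 ± 6.47 with KPT-330, 245 ± 15.9 with CS and 278 ± 30.6 with DMSO (SD, n = 3 each). It fell with KPT-330 (-0.53 ± 0.09, adjusted p = 0.00026) and with KPT-330+CS (-0.49 ± 0.09, adjusted p = 0.000329). ZFAND5, a proteasome-binding zinc finger protein, changed by -0.73 ± 0.08, adjusted p = 7.07e-06 with KPT-330, and PAAF1, which binds the cap's ATPases, by 0.24 ± 0.05, adjusted p = 0.00114.

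Among 8 genes of the NRF1 and NRF2 control of the proteasome, 1 rose and 2 fell with KPT-330, so the share that fell was close to that of all genes and the share that rose was lower. NFE2L1, which encodes NRF1, the factor that induces proteasome genes when proteasome activity is blocked, averaged 122 ± 9.22 CPM with KPT-330+CS, 120.4 ± 2.18 with KPT-330, 116 ± 11.6 with CS and 103 ± 13.7 with DMSO. It did not pass with KPT-330 (0.23 ± 0.09, adjusted p = 0.0645) and rose with KPT-330+CS (0.24 ± 0.09, adjusted p = 0.0455). That last call was lost in a fit of the 2 groups alone, with no filter, DESeq2, DESeq2 size factors, limma or the replicate block, and without KPT-330+CS replicate 1 or 2, KPT-330 replicate 1, 2 or 3, CS replicate 2 or DMSO replicate 2 or 3, at log2 fold changes between 0.16 and 0.27. NFE2L2, which encodes NRF2, the antioxidant-response factor, averaged 41.7 ± 1.67 CPM with KPT-330+CS, 37.8 ± 1.87 with KPT-330, 63.8 ± 3.20 with CS and 64.9 ± 8.09 with DMSO. It fell with KPT-330 (-0.78 ± 0.08, adjusted p = 6.34e-06) and with KPT-330+CS (-0.64 ± 0.08, adjusted p = 2.01e-05). MAFK, a partner of both factors, rose with KPT-330 (0.82 ± 0.30, adjusted p = 0.0365), a call lost without any one of KPT-330 replicates 1 to 3, CS replicate 2 and DMSO replicates 2 and 3, at values between 0.59 and 0.89, and with GC correction (0.23, adjusted p = 0.117), no filter or the replicate block.

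Of 16 ubiquitin and shuttle genes, 8 fell and 2 rose with KPT-330, and not all of these are named. VCP, the segregase that extracts ubiquitin-tagged proteins, changed by -1.02 ± 0.05, adjusted p = 7.17e-09 with KPT-330 and by -1.07 ± 0.05, adjusted p = 1.89e-09 with KPT-330+CS. Of 12 antigen processing genes, 8 rose and 1 fell with KPT-330, with a median of 0.34. HLA-C, a class I molecule, rose (0.76 ± 0.15, adjusted p = 0.000846). In CS against KPT-330 its change reversed with GC correction (0.042, adjusted p = 0.573).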

How the data were processed

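RNA of JEKO-1 cells was sequenced in 12 libraries, 3 for each of KPT-330+CS, KPT-330, CS and DMSO, and samples were grouped by their labels. Per the series design text, STAR aligned the reads to hg38 within an adapted MAP-RSeq pipeline and genes were those of Ensembl version 78. The table that the authors deposited holds raw counts per gene, as whole numbers. The submitters' processing notes also name STAR, edgeR and hg38. The counting program, its strand setting and tool versions are not stated there. The library kit does not mark strand, so antisense pairs are not separated, and libraries were poly(A) RNA taken with a kit for fixed tissue, per the labels' protocols. Total counts of 35325563 to 59490178 per library set the precision.

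Tests on these counts used the package edgeR, version 4.0.16, under R 4.3.3 (robust quasi-likelihood F-test, two-sided, TMM scaling, filterByExpr by group, group as the only term, 8 residual degrees of freedom). All 12 libraries entered 1 fit, so the spread of each gene was estimated over all groups, although it was smallest with KPT-330. Standard errors and p-values of CS against DMSO therefore also rest on the KPT-330 libraries. Adjusted p-values are Benjamini-Hochberg over 19460 tested genes in each of 7 comparisons, and values after a plus-minus sign beside a log2 fold change are standard errors. The members and lists were chosen with earlier results of these data known. Per-library values follow a rule: the catalytic subunits, the PSME genes, PSMF1 and PSMC3IP, the highest and lowest member of each role group in KPT-330 against DMSO, and the 3 highest and 3 lowest in KPT-330+CS against KPT-330 and in CS against DMSO. PSMD2, PSMD11 and other members given by fold change alone were named after their values were seen.

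Alternatives were no filter, a stricter filter (3 or more libraries at 1 CPM), scaling by DESeq2 size factors or by library size alone, DESeq2 1.42.0, limma 3.58.1 voom with a weight per group, the compared groups alone, the replicate number as a block, a GC correction (lowess, span 0.3), each library left out in turn and an absolute log2 fold change over 1. A run without the library of lowest GC slope in KPT-330+CS, CS and DMSO was added after the data were seen. GC content came from GENCODE 44 transcripts and was known for 97.0% of tested genes. All 51 gene identifiers were in GENCODE 44. Another 15 entries of these names on alternative sequences had 0 reads. Some genes of the pathway lists and 1 promoter motif are not reported here. The edgeR fit was tried on simulated counts with known changes in KPT-330, for KPT-330 against DMSO alone. That simulation held no GC slopes, and other steps were not tried on it. Figures were drawn with matplotlib 3.10.9.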

Additional observations from a re-analysis of the deposited data

Results flagged for a closer look

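The effect of CS differed with and without KPT-330 for 5 of the genes of these names, by the interaction term of the edgeR fit (Benjamini-Hochberg over all tested genes). Among them 4 are of the 47 tested proteasome genes, 1 positive and 3 negative, where 8.04% of all tested genes were positive and 6.62% negative. The negative share was thus close to that of all genes, and the positive share was lower. The interaction, in log2 units, was -0.56 for PSMC3 (adjusted p = 0.00182), -0.52 for PSMC3IP (adjusted p = 0.00409), -0.32 for PSMB8 (adjusted p = 0.0467), -0.30 for PSMC5 (adjusted p = 0.0398) and 0.30 for PSMA5 (adjusted p = 0.0109). For PSMC3 and PSMC3IP the term passed in each of 21 alternatives at the same limit on adjusted p. For PSMB8, PSMC5 and PSMA5 it was lost in 12, 10 and 1 of them. PSMC3 averaged 164 CPM with KPT-330+CS and 259.9 with KPT-330, and 292 with CS and 313.8 with DMSO. PSMB8 averaged 60.5 CPM with KPT-330+CS and 58.9 with KPT-330, and 54.9 with CS and 42.9 with DMSO.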

How the results depend on the processing

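Of genes called in KPT-330 against DMSO, 28 of 40 kept their call in every alternative other than the limit on fold change. The same held for 38 of 43 in KPT-330+CS against DMSO, 16 of 22 in KPT-330+CS against KPT-330, 33 of 39 in KPT-330+CS against CS, 18 of 24 in CS against KPT-330, 1 of 20 in CS against DMSO and 1 of 4 in the interaction. Leaving out 1 library gave 8 to 25 called genes in CS against DMSO and 2 to 15 in the interaction, 15 without DMSO replicate 1. An absolute log2 fold change over 1 left 2 genes in KPT-330 against DMSO, 7 in KPT-330+CS against DMSO, 1 in KPT-330+CS against CS and 0 in CS against DMSO, KPT-330+CS against KPT-330, CS against KPT-330 and the interaction. A fit of CS and DMSO libraries alone called 1. GC correction called 36 genes in KPT-330+CS against KPT-330 and 15 in the interaction. It reversed PSMG3 in KPT-330 against DMSO (-0.17), PSMA3 (-0.13) and POMP (-0.088) in KPT-330+CS against KPT-330, PSMD12 (-0.085), NFE2L1 (0.13) and HLA-C (0.042) in CS against KPT-330, and PSMD1 in the interaction (-0.12), and the cause was not tested. Library size alone raised the median of all genes by 0.16 in KPT-330 against DMSO, 0.18 in KPT-330+CS against DMSO and 0.12 in KPT-330+CS against CS. With DMSO, CS and KPT-330+CS each without their library of lowest GC slope, 37 genes fell and 3 rose with KPT-330.

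Same-numbered libraries correlated at -0.38 to 0.40 over 18 pairs, 2 of them over 0.1, so the numbers were not taken as pairs. With the replicate block 13 genes were called in CS against DMSO and 2 in the interaction.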
